A study of Mus musculus with 2 samples.

Results

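Imprinted genes were followed as a group of 47 named genes on arrays of mouse embryonic stem cells. The members were the gene names in a list of known imprinted genes. Probes were taken by gene name, but the list was chosen with earlier results of these data known. All 47 are on the array, with 100 of its 56605 probes, among 33012 gene names. Of these, 41 members were measured on both arrays, 2 on the wild type array alone and 4 on neither.

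The arrays compare Linc1548 knockout cells with wild type cells, 1 array in each group. Both groups are of line 46C, a mouse embryonic stem cell line with a GFP reporter at the Sox1 locus, and both had been cultured for 5 days as floating aggregates in serum replacement medium that allows neural differentiation. Linc1548 is a long intergenic non-coding RNA, and the study asks what its loss does to the step from epiblast-like cells to neural progenitors. The labels do not say how the knockout was made or how many clones it rests on, and no probe on the array is named for Linc1548, so the targeted RNA itself was not read. Because each group has 1 array and hence no replicate, no test was run, and every difference below is between those arrays.

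Imprinted genes are transcribed mainly from the copy inherited from the mother or from the copy inherited from the father. They lie in domains, where DNA methylation laid down in the germ line at a control region sets the active copy of several neighbouring genes, often through a long non-coding RNA. Many steer growth of the embryo and placenta, and others act in the brain; several domains are imprinted only in the placenta or only in neurons. The arrays do not tell the parental copies apart, so the allele named for each gene is background knowledge and not a measurement.

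Signals below are processed spot intensities scaled so that both arrays share the same 75th percentile. Probes were taken as measured where, on each array, a share of 0.5 or more of the spots was called well above background by the scanner software. A gene's difference is the median over its measured probes of the log2 signal of the knockout minus that of wild type, so 1 is a doubling and −1 a halving. The scanner software's own error of such a difference lay between 0.204 and 0.329 for the measured members. A probe of Snrpn printed in 10 spots shows how close repeated spots lay, at 85428 to 91380 on the knockout array and 30647 to 31690 on the wild type array. Such repeats cover the error of a hybridised array, and the spread between cultures was not measured. Distances given between genes run from the first probe of each along the chromosome, not from gene start to gene start.

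Markers of cell state differed widely between the arrays, and each result below lies beside that difference. Of all measured genes, 11.5% were at least 2-fold higher in the knockout and 8.81% at least 2-fold lower. Of 12 pluripotency markers, 11 were at least 2-fold higher. Their summed signal was 465099 on the knockout array and 80329.7 on the wild type array, over the brightest probe of each of the 12 genes. The exception was Nanog, whose 2 probes disagreed (−1.63 and 2.95). Of 11 measured neural progenitor markers, 10 were at least 2-fold lower, all but Sox2 (0.15). The summed signals were 24151 in the knockout and 112716 in wild type, and Olig2 was above background in wild type alone. Of 11 measured neuronal markers, 7 were lower by that much, with 57930 in the knockout and 69717 in wild type, and Neurog2 was above background in wild type alone. Trophoblast markers were mixed, with 3 of 8 higher (Cdx2, Eomes and Tfap2c) and 2 lower (Gata3 and Krt8), with 68169.5 in the knockout and 77552 in wild type; Elf5 and Hand1 were not above background on either array, and Tpbpa and Prl3d1 only in wild type. Of 12 extraembryonic endoderm markers, 4 were higher and 2 lower, with 57944 in the knockout and 75112 in wild type. The part of these cell states in the differences of imprinted genes was not tested, and in bulk RNA fewer cells of a type and less RNA per cell cannot be told apart.

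Imprinted genes were more often lower than higher in the knockout. Of the 41 measured members, 4 (9.76%) were at least 2-fold higher, where 11.5% of all 18690 measured genes were, and 11 (26.8%) were at least 2-fold lower, where 8.81% of all measured genes were. The members higher by that much were Calcr, Phlda2, Ascl2 and Snrpn. Those lower were Plagl1, Dlk1, Peg12, Sgce, Cdkn1c, Mkrn3, Usp29, Mest, Blcap, Peg3 and Gnas. The median difference of the members was −0.29, and that of all measured genes was 0.10. The plot by domain shows that members of the same domain often lay on opposite sides of 0.

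**Figure D1:**
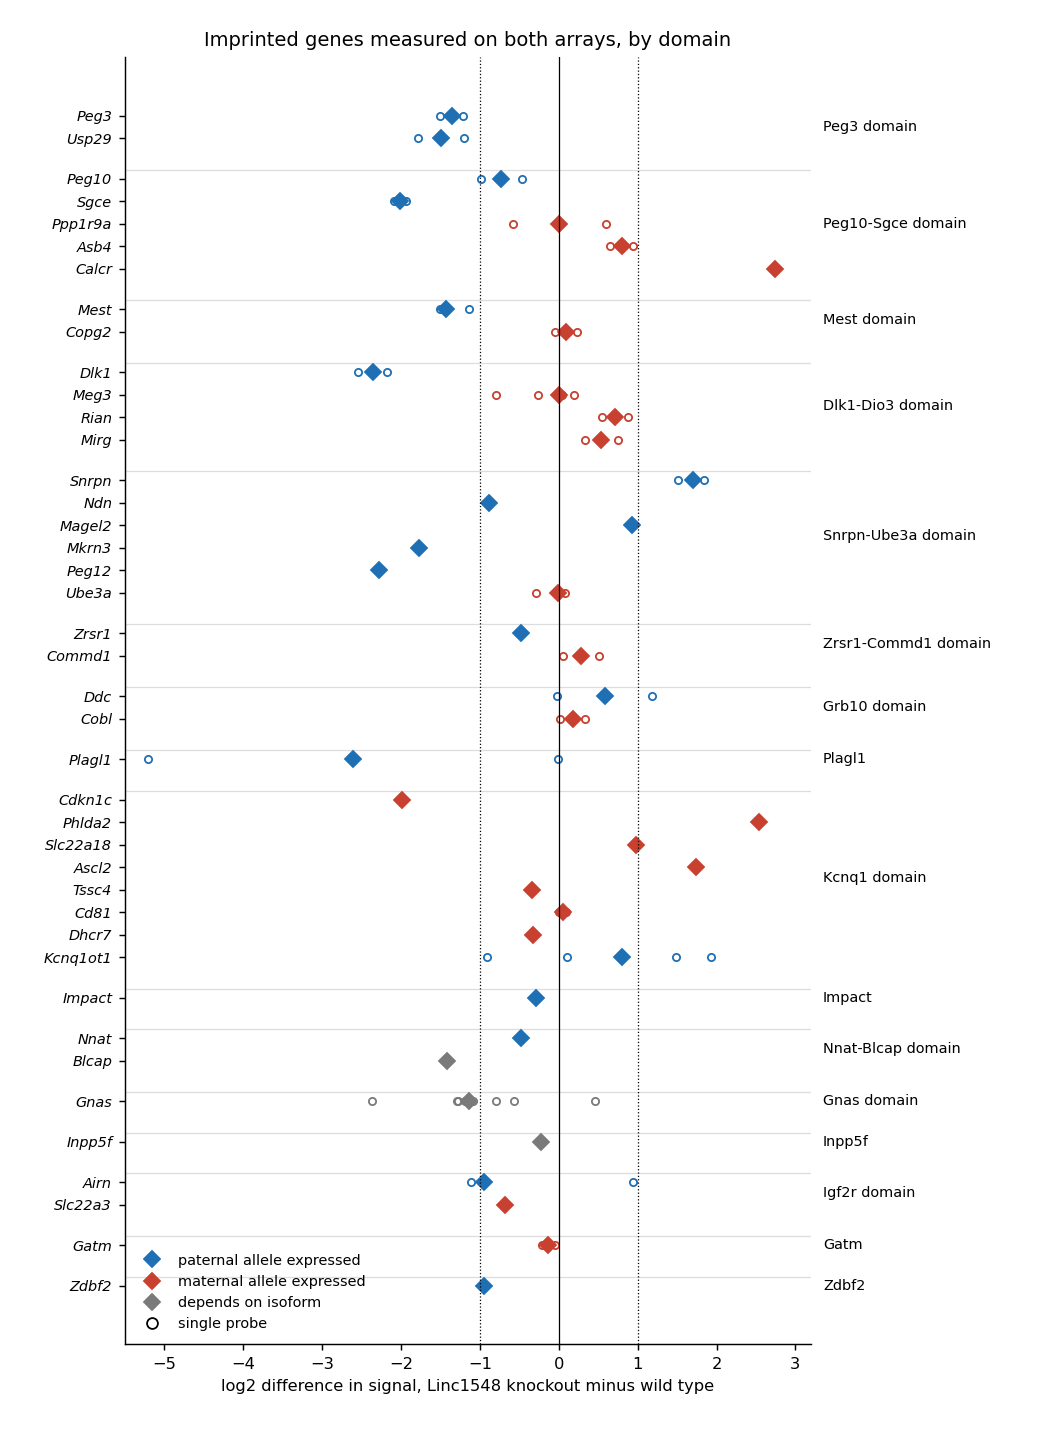
Log2 difference in signal, Linc1548 knockout minus wild type (x axis), of the 41 imprinted genes measured on both arrays (y axis), grouped by domain; diamonds are gene values, open circles single probes, colours the parental allele known to be expressed, and dotted lines mark 2-fold. Peg3, Usp29, Sgce, Mest, Dlk1, Mkrn3, Peg12 and Plagl1 lie beyond 2-fold on the lower side among paternally expressed genes, and Snrpn beyond it on the higher side.

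In the Peg3 domain on chromosome 7 both measured members were lower in the knockout. Peg3, a zinc finger gene of growth control expressed from the paternal copy, read 1637 in the knockout against 4639 in wild type on its probe at chr7:6657078-6657137 (mm9, as all positions here), and 533 against 1234 on its second measured probe. Its difference was −1.36, or 2.56-fold lower. Usp29, a deubiquitinase gene that starts beside Peg3 and runs the other way, read 392 in the knockout against 1356 in wild type on one probe and 49.7 against 115 on another, a difference of −1.50. Every measured probe of both genes was thus lower by over 2-fold. Zim1, the maternally expressed neighbour, exceeded background in wild type alone, at 31.4 in the knockout and 53.1 in wild type, which makes it at least 1.69-fold lower.

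The Peg10-Sgce domain on chromosome 6 held differences in both directions. Sgce, which encodes epsilon-sarcoglycan and is expressed from the paternal copy, read 4117 in the knockout against 15714 in wild type and, on a second probe, 650 against 2774; it was 4.04-fold lower. Peg10, a retrotransposon-derived gene needed by the placenta, was lower by less. It read 175 against 347 on one probe and 205 against 283 on the other, a difference of −0.73. The first probes of Sgce and Peg10 lie 80.1 kb apart along the chromosome, which is not the distance between the genes. Both paternally expressed genes of the domain were therefore lower, Sgce past 2-fold and Peg10 within it. Calcr, the maternally expressed calcitonin receptor at the other end of the domain, read 754 in the knockout against 112 in wild type on its measured probe at chr6:3635940-3635999, which is 6.70-fold higher and the highest value among the members. Asb4, an ankyrin repeat gene also expressed from the maternal copy, read 1988 in the knockout against 1034 in wild type on its brighter probe and had a difference of 0.80. Ppp1r9a, the gene of the actin-binding protein neurabin, gave no clear direction: its probes differed by 0.60 (464 in the knockout, 307 in wild type) and by −0.58 (2835 in the knockout, 4238 in wild type).

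Mest, further along chromosome 6, is a paternally expressed gene of the hydrolase fold family that is used as a marker of mesoderm. Its brightest probe read 3904 in the knockout against 11124 in wild type, another 576 against 1268, and the dimmest 40.9 against 110. All 3 measured probes were lower by over 2-fold, and the gene's difference was −1.43. Of 8 measured mesoderm markers, 1 (12.5%) was at least 2-fold higher and 2 (25%) lower, where 11.5% and 8.81% of all measured genes were. Below 0 lay 6 (75%), where 43.2% of all measured genes did, and the median was −0.51 over the markers. Their summed signals were 9735 in the knockout and 5907 in wild type, of which Tcf15, the marker that was higher, gave 6286 in the knockout and 548 in wild type. Copg2, a coatomer subunit gene whose end lies 16.3 kb from the first Mest probe and which is maternally expressed, read 7303 in the knockout against 7517 in wild type and differed by 0.09. Nap1l5, a paternally expressed gene elsewhere on chromosome 6 that lies within an intron of another gene, was well above background in wild type alone, with 6.45 in the knockout against 66.1 in wild type, and so was at least 2.17-fold lower.

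In the Dlk1-Dio3 domain on chromosome 12, the paternally expressed coding gene and the maternally expressed RNAs parted. Dlk1, a transmembrane relative of the Notch ligands, read 479 in the knockout against 2791 in wild type at chr12:110698721-110698781, and 96.9 against 438 on its other probe. It was 5.13-fold lower. Meg3, the long non-coding RNA that opens the maternal transcripts 84.3 kb away, had a median of 0.01. Its 5 probes, in order along the chromosome, read 2551, 40235, 4124, 319 and 27305 in the knockout, against 2537, 38929, 3602, 552 and 32670 in wild type. The differences were 0.01, 0.05, 0.20, −0.79 and −0.26, so the probes nearer its start gave almost the same signal on both arrays and the later ones were lower in the knockout. The sign of the median turned with 5 other settings, from −0.04 with normexp background correction to −0.38 with spike-in centring. Printed below are the Meg3 probes with the highest difference (chr12:110799833-110799892) and the lowest (chr12:110806386-110806445), because they bound the disagreement within this RNA:
Meg3, difference 0.20: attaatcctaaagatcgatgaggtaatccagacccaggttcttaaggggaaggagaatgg
Meg3, difference −0.79: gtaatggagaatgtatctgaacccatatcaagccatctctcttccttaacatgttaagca

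Rian and Mirg, the maternal non-coding RNAs that host small nucleolar RNAs and microRNAs, lay above 0 on all of their probes. Rian read 9496 in the knockout against 5171 in wild type on one probe and 412 against 281 on the other, a difference of 0.71. Mirg read 8110 against 6439 and 5874 against 3492, a difference of 0.54. Neither passed 2-fold. Other probes on the same strand, from the first Meg3 probe to the last Mirg probe, showed a similar picture. This stretch was chosen after the values were seen. Of 15 measured probes, 14 lay above 0 and the median was 0.41, where 10616 of all 18690 measured genes lay above 0. At least 2-fold higher were 2 of the 15, where 10.5% of all 31536 measured probes were. The probes of this stretch were not recounted with spike-in centring. Rtl1 and Dio3, the other paternally expressed genes of the domain, were not above background on either array.

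**Figure D2:**
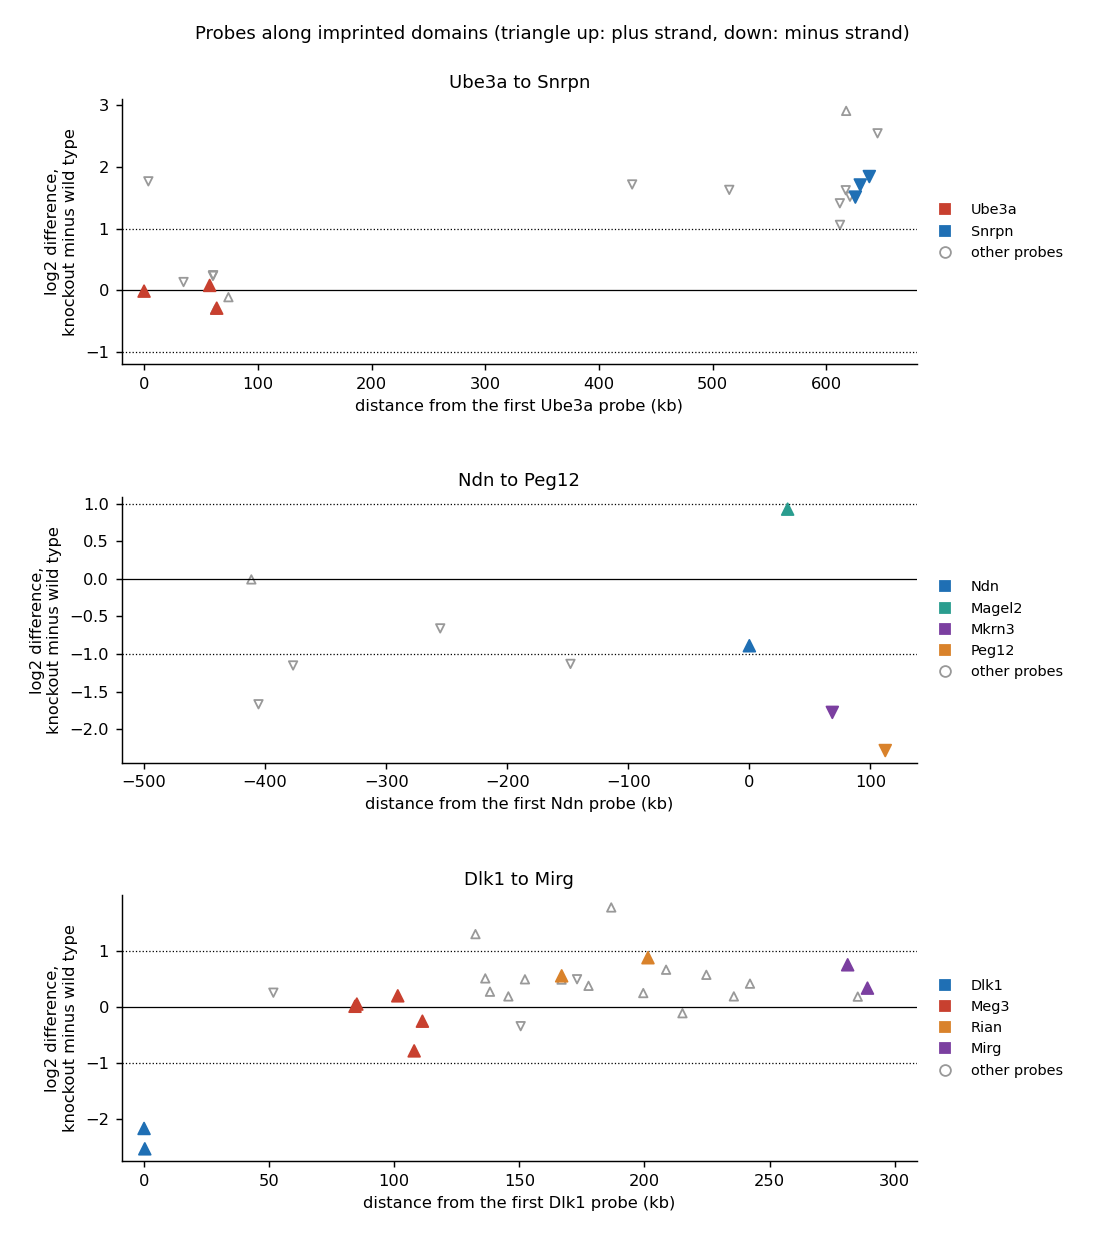
Log2 difference, Linc1548 knockout minus wild type (y axis), of each measured probe against its distance in kb from the first probe of the leading gene (x axis), for Ube3a to Snrpn, Ndn to Peg12 and Dlk1 to Mirg; filled triangles are members, open ones other probes, pointing up for the plus strand and down for the minus strand, and dotted lines mark 2-fold. The 3 Snrpn probes and the minus-strand probes between them and the last Ube3a probe lie above the upper line. Mkrn3 and Peg12 lie below the lower one, and Dlk1 lies apart from the RNAs that follow it.

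The Snrpn-Ube3a domain on chromosome 7, the counterpart of the human Prader-Willi and Angelman region, held the paternally expressed genes that differed most from each other. Snrpn, which encodes a small nuclear ribonucleoprotein particle protein, was higher on each of its 3 probes. It read 88908 in the knockout against 31227 in wild type, 19538 against 5991 and 12721 against 3548, and was 3.26-fold higher. About 2480 kb away, Peg12, a relative of the Frat genes that bind GSK3, read 1420 in the knockout against 6907 in wild type and was 4.86-fold lower. Mkrn3, a makorin ring finger gene 43.7 kb from Peg12, read 494 against 1691 and was 3.42-fold lower. Ndn (necdin), a MAGE family growth suppressor of neurons, read 8637 in the knockout against 15998 in wild type, a difference of −0.89. Its neighbour Magel2, another MAGE family gene 31.6 kb from Ndn, lay on the opposite side, with 3190 in the knockout against 1679 in wild type and a difference of 0.93. Paternally expressed genes of this domain thus gave values on both sides of 0, and the 4 genes of the Ndn end have 1 probe each.

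The Peg12 probe shares 46 of its 60 bases with a probe named for Frat1, a gene on chromosome 19. That probe read 599 in the knockout against 2124 in wild type, a difference of −1.83. How far the Peg12 probe also read Frat1 RNA was not tested.

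Ube3a, the maternally expressed ubiquitin ligase gene that is imprinted in neurons, was close to equal on both arrays. It read 5737 in the knockout against 5423 in wild type, 1730 against 1744 and 276 against 337, with a median of −0.01. The paternal transcript that starts at Snrpn continues on the minus strand through the small nucleolar RNA hosts and, in neurons, across Ube3a. Of 13 other minus-strand probes between the last Ube3a probe and the far Snrpn probe, 6 were measured. All 6 were at least 2-fold higher in the knockout, from 1.06 to 1.71, with a median of 1.57, where 10.5% of all measured probes were. Among these 6, Snhg14, the host RNA of this cluster, read 7593 in the knockout against 3642 in wild type. Ipw, a non-coding RNA of the same transcript, read 168 against 51.1. On the plus strand of this stretch, 2 of 6 probes were measured, at 2.90 (393 in the knockout against 52.5 in wild type) and −0.11. Another plus-strand probe was above background in the knockout alone (52.3 against 19.2 in wild type). Higher signal there was thus not confined to the minus strand. Of the 4 minus-strand probes inside the span of the Ube3a probes, 1 was past 2-fold (241 in the knockout against 71.0 in wild type, a difference of 1.76) and the other 3 lay between 0.14 and 0.25. The higher signal on the Snrpn side was therefore not shared by most probes antisense to Ube3a. Of the 6 measured probes between Snrpn and Ndn, 1 was at least 2-fold higher and 3 lower, where 8.44% of all measured probes were lower by that much; these stretches were also chosen after the values were seen.

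In the Kcnq1 domain at the end of chromosome 7, the maternally expressed genes went both ways. Cdkn1c, which encodes the cyclin-dependent kinase inhibitor p57 that accompanies exit from the cell cycle, read 13173 in the knockout against 52097 in wild type at chr7:150644297-150644356, and was 3.95-fold lower. Phlda2, a pleckstrin homology gene that restrains growth of the placenta, lies 43.2 kb away at chr7:150687464-150687523 and read 1062 in the knockout against 183 in wild type, 5.80-fold higher. Between them Slc22a18, a transporter gene, read 277 against 140 on its measured probe, a difference of 0.98 that reached 1.17 without the filter on dim probes. These neighbours are silenced on the paternal copy by the same control region, and here Cdkn1c lay below 0 and the other two above it.

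Ascl2, a helix-loop-helix factor of the trophoblast, read 505 in the knockout against 151 in wild type and was 3.34-fold higher. The remaining maternally expressed genes of the domain, whose imprinting is known from the placenta, stayed near equality. Cd81, a tetraspanin gene, read 29595 in the knockout against 27663 in wild type on its brighter probe and 4956 against 4931 on the other. Tssc4 read 5439 in the knockout against 6864 in wild type, a difference of −0.34. Dhcr7, the enzyme of the last step of cholesterol synthesis, read 1171 in the knockout against 1471 in wild type, a difference of −0.33. Of the maternally expressed members of the domain, 2 were therefore past 2-fold on the higher side and 1 on the lower.

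Kcnq1ot1, the paternal antisense RNA that silences the domain, had a median difference of 0.80 that hides disagreement among its probes. Along the chromosome its 4 measured probes read 319, 20215, 16828 and 1273 in the knockout, against 296, 5301, 5988 and 2391 in wild type. The differences were 0.11, 1.93, 1.49 and −0.91, so the middle probes were past 2-fold higher while the last was lower. A probe that the array names KCNQ1ot1, with other capitals and so outside the members, lies further along at chr7:150482141-150482200, is given on the plus strand whereas these 4 are on the minus strand, and read 1342 in the knockout against 870 in wild type, a difference of 0.63. The 4 probes are shown because the reading of this RNA depends on which of them is taken, and capitals mark 25 bases in a row that the second shares with a probe for a predicted transcript of chromosome 2:
Kcnq1ot1, difference 0.11: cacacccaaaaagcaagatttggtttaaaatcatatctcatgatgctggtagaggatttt
Kcnq1ot1, difference 1.93: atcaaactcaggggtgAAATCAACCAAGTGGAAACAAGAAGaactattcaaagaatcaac
Kcnq1ot1, difference 1.49: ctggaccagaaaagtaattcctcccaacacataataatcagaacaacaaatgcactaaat
Kcnq1ot1, difference −0.91: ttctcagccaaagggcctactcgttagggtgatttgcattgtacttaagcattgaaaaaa

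The middle probes of Kcnq1ot1 were not particular to it in sequence. The 1.93 probe shares 46 of 60 bases with the chromosome 2 probe, which itself did not count as measured (6.46 in the knockout, 4.33 in wild type). The 1.49 probe shares 51 of 60 bases with a probe named for Kcnq5 on chromosome 1, and that probe read 3129 in the knockout against 1018 in wild type, a difference of 1.62. The 0.11 probe matched 3 of 32851 promoter windows searched, with 45 or more of 60 bases identical. How much of these signals came from other loci was not tested, and the direction for Kcnq1ot1 is uncertain.

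In the Igf2r domain on chromosome 17, Airn, the paternal RNA antisense to Igf2r, also had probes that differed. They read 1191, 459 and 144 in the knockout, against 2576, 887 and 74.7 in wild type, in order along the transcript. The differences were −1.11, −0.95 and 0.94, so the far probe lay opposite to the others. The −0.95 probe also matched 5 of the promoter windows searched at the same limit, and whether it read other RNAs was not tested. The sequences are given for comparison with those of Kcnq1ot1, from the start of Airn to its far end:
Airn, difference −1.11: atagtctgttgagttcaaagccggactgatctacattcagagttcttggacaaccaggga
Airn, difference −0.95: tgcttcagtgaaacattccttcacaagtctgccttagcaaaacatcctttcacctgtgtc
Airn, difference 0.94: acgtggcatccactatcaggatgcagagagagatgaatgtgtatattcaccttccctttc

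Inside the span of the Airn probes, 2 of 4 other probes of the same strand were measured. Both were at least 2-fold lower, at −1.35 and −1.25, where 8.44% of all measured probes were. These 2 probes were dim, at 43.7 and 40.5 in the knockout against 111 and 96.3 in wild type. This stretch was also chosen after the values were seen. Slc22a3, an organic cation transporter gene of the domain that is imprinted in placenta, read 38.4 in the knockout against 61.4 in wild type, a difference of −0.68 close to background. Slc22a2, its neighbour, was not above background on either array. Igf2r itself, which is no member here, read 4178 in the knockout against 4606 in wild type.

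Gnas, on chromosome 2, encodes the stimulatory G protein alpha subunit and produces maternal, paternal and biallelic transcripts from alternative first exons. Of its 8 measured probes, 7 were lower in the knockout, and the gene value was −1.14. The pair at the shared 3′ end read 38400 and 24191 in the knockout, against 93473 and 55167 in wild type, so the bulk of Gnas RNA was 2.43-fold and 2.28-fold lower on those probes. The most 5′ measured probe was the exception, with 926 in the knockout against 673 in wild type and a difference of 0.46. The probe at chr2:174163501-174163560, which the array assigns to another transcript variant, read 139 against 719 and was 5.17-fold lower. The probes in between differed by −1.28 to −0.57.

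Plagl1, a paternally expressed zinc finger transcription factor gene on chromosome 10, gave the widest disagreement of all members. Its probe at chr10:12850832-12850891 read 96.3 in the knockout against 3551 in wild type, 36.9-fold lower. Its other measured probe, 50.9 in the knockout and 51.3 in wild type, lay near background and differed by −0.01. The gene value of −2.61 is the midpoint of these and describes neither, and it moved to −0.34 without the filter on dim probes.

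**Figure D3:**
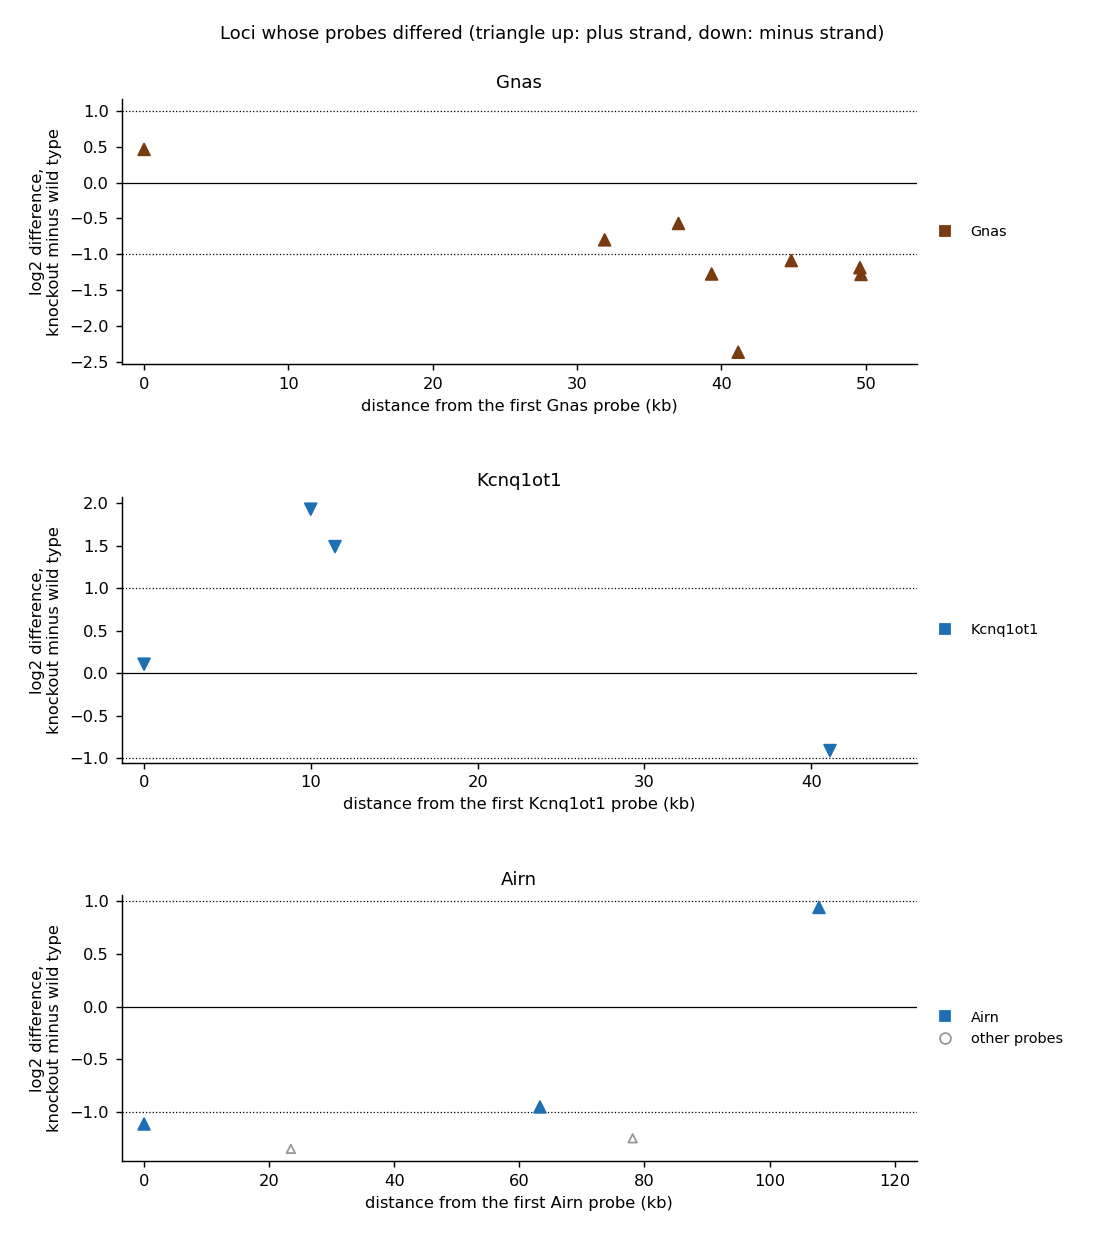
Log2 difference, Linc1548 knockout minus wild type (y axis), of each measured probe of Gnas, Kcnq1ot1 and Airn against its distance in kb from the first probe on the chromosome (x axis); filled triangles are members, open ones other probes, pointing up for the plus strand and down for the minus strand, and dotted lines mark 2-fold. Gnas lies above 0 only at its first probe, Kcnq1ot1 spans 1.93 to −0.91, and Airn turns to 0.94 at its far end.

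The other measured members differed by under 2-fold, with the exception of Blcap. Blcap, in whose intron Nnat lies, read 3978 in the knockout against 10599 in wild type and was 2.66-fold lower. Nnat (neuronatin), a paternally expressed proteolipid gene of the nervous system 5.84 kb away, read 2131 against 2976, a difference of −0.48. Zdbf2, a paternally expressed zinc finger gene on chromosome 1, read 1009 in the knockout against 1951 in wild type, a difference of −0.95. It stayed within 2-fold here but not with spike-in centring (−1.34).

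Zrsr1, a paternally expressed splicing factor gene inside an intron of Commd1, read 987 in the knockout against 1376 in wild type, a difference of −0.48. Commd1 itself, a copper metabolism gene expressed from the maternal copy, differed by 0.28, with 10396 against 10010 on its bright probe. In the Grb10 domain, Ddc, the aromatic amino acid decarboxylase, read 6466 in the knockout against 2839 in wild type on one probe and 132 against 135 on the other, which gave 1.19 and −0.03. Cobl, an actin nucleator gene on the far side of Grb10, differed by 0.18. Between them lie Grb10, which is no member and had the lowest value of all measured genes (−5.71), and 1700042O10Rik (1.74). Impact, a translational regulator gene, read 13473 in the knockout against 16484 in wild type (−0.29), Inpp5f, a phosphoinositide phosphatase gene, 2412 against 2815 (−0.22), and Gatm, an enzyme gene of creatine synthesis, differed by −0.13. Rasgrf1, a paternally expressed exchange factor gene of neurons, was not above background on either array.

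**Figure D4:**
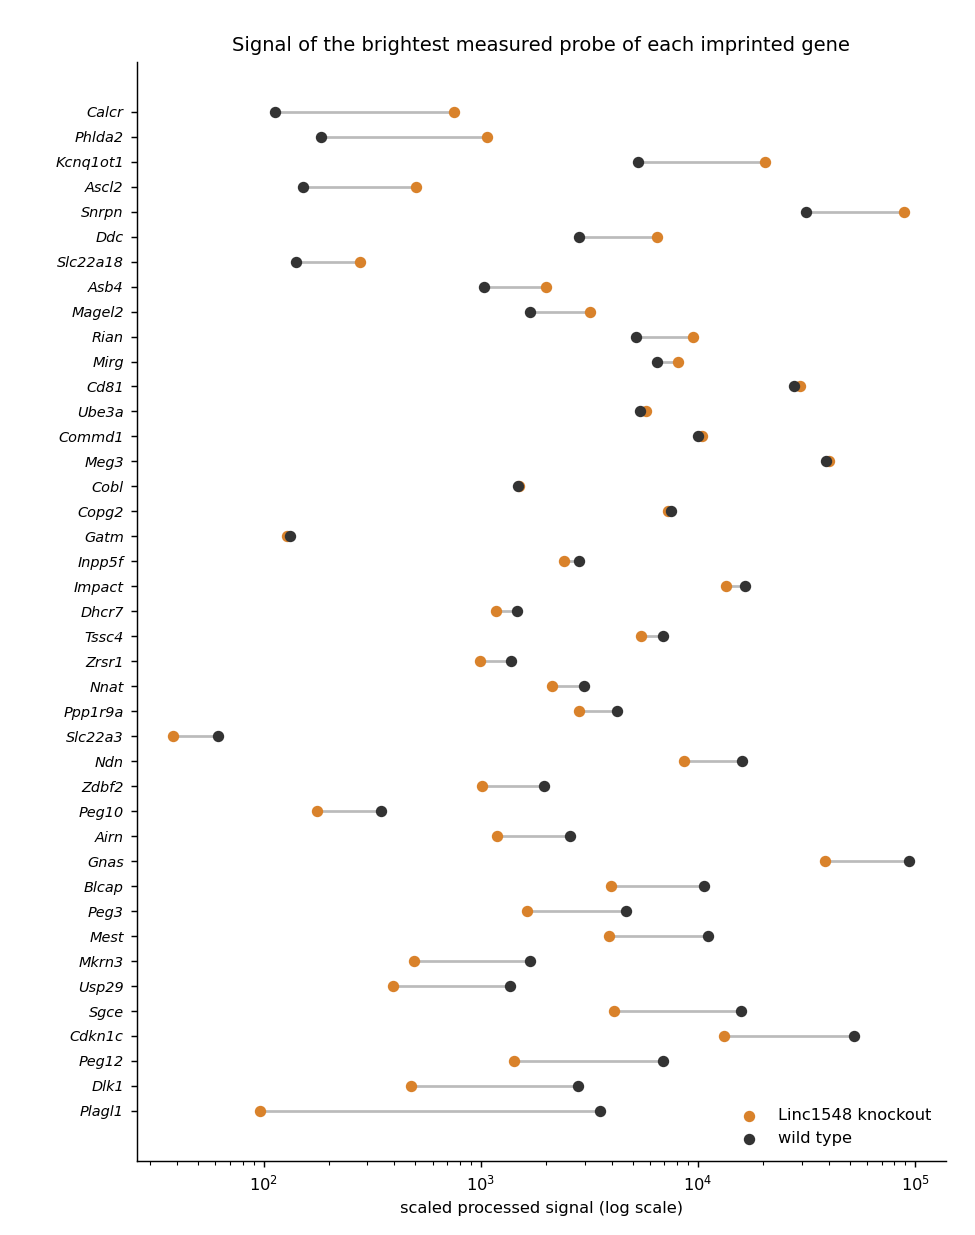
Scaled processed signal (x axis, log scale) on the knockout array (orange) and the wild type array (black) for the brightest measured probe of each of the 41 measured imprinted genes (y axis), ordered by the difference. Calcr stands at the top, with 754 in the knockout and 112 in wild type, and Plagl1 at the bottom, with 96.3 in the knockout and 3551 in wild type.

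Arranged by the allele known to be expressed, paternally expressed genes lay lower than maternally expressed ones. Of 23 paternally expressed members 19 were measured, and 15 of these lay below 0, with 8 (42.1%) at least 2-fold lower, 1 (Snrpn, 5.26%) higher by that much and a median of −0.95. Of 21 maternally expressed members 19 were measured, and 13 lay above 0, with 3 (Calcr, Phlda2 and Ascl2, 15.8%) at least 2-fold higher, 1 (Cdkn1c, 5.26%) at least 2-fold lower and a median of 0.09. Over all measured genes, 11.5% were higher and 8.81% lower by that much and 43.2% lay below 0, so the counts of maternally expressed genes past 2-fold lay near those of all genes. The remaining 3 members, Blcap, Gnas and Inpp5f, are expressed from either allele depending on isoform, and 2 of them were at least 2-fold lower. With spike-in centring, which moved the median of all genes by −0.38, 7 maternally expressed genes lay above 0 and their median was −0.29, while the paternal median was −1.34. The classes were not tested against each other, and genes of the same domain are not independent of each other. Several domains are imprinted only in the placenta or only in neurons, and which allele was active in these cells was not measured.

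**Figure D5:**
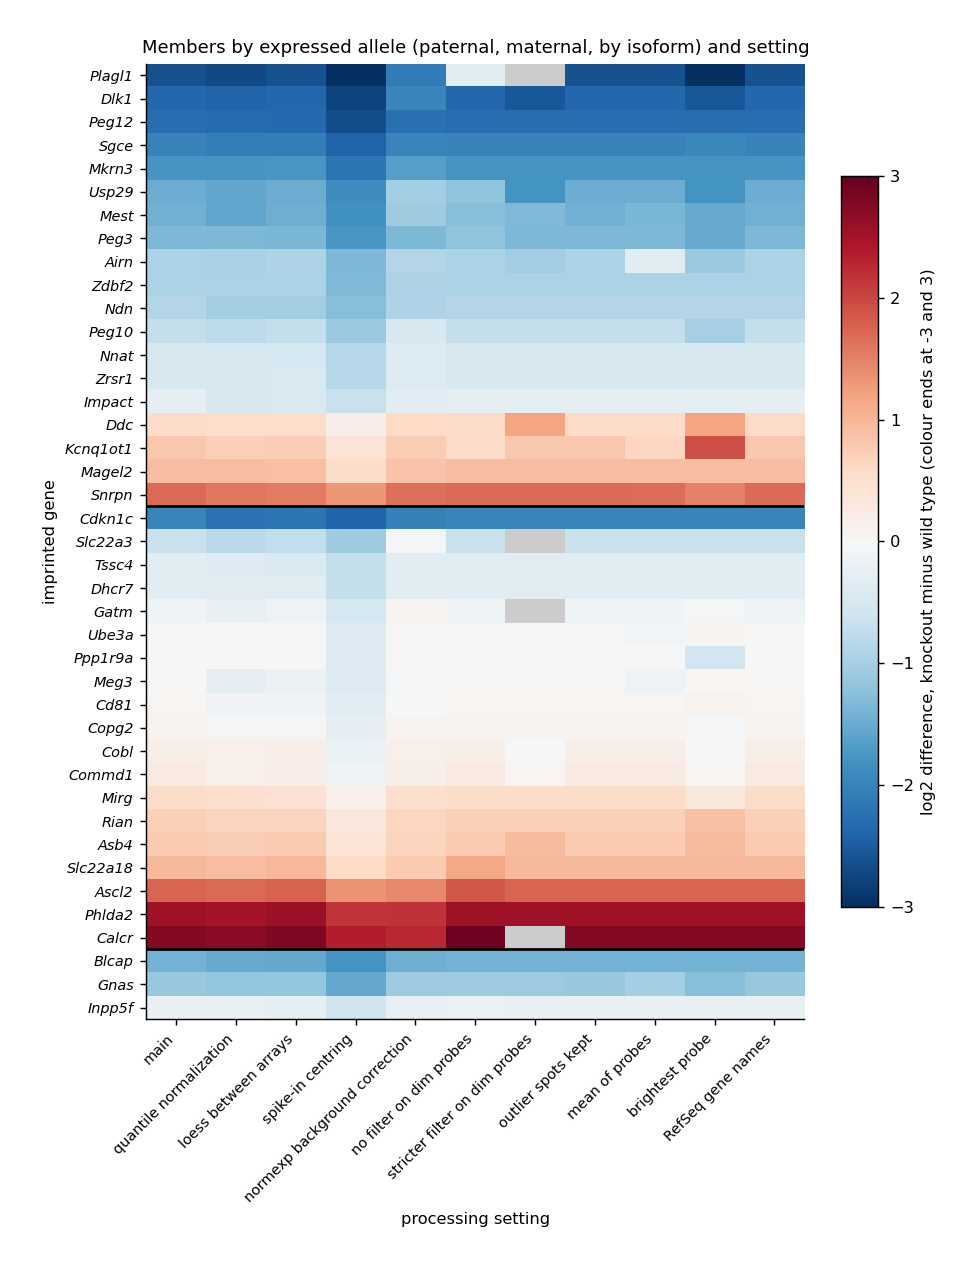
Log2 difference, Linc1548 knockout minus wild type (colour, ending at −3 and 3), of each measured imprinted gene (y axis; paternal, maternal and isoform-dependent genes separated by lines) under each processing setting (x axis), with grey where a setting gives no value. Dlk1, Peg12, Sgce, Mkrn3 and Cdkn1c stay blue and Snrpn, Ascl2, Phlda2 and Calcr red wherever they have a value, while Meg3, Ppp1r9a and Ube3a stay pale.

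Imprinted genes outside the 47 were spread widely in both directions. Of 34 such genes, 26 had a value on both arrays, and past 2-fold there were 6 (23.1%) on the higher and 6 on the lower side, beside 11.5% and 8.81% of all measured genes, with a median of −0.04. H19, the maternal non-coding RNA of the Igf2 domain, was 11.5-fold higher, while Igf2, the paternal growth factor gene beside it, read 161 in the knockout against 2104 in wild type, a difference of −3.71. Grb10, a growth factor receptor adaptor gene, read 54.1 against 2835 and was 52.4-fold lower on its 1 measured probe of 3; the others, at 6.35 and 19.2 in the knockout against 434 and 1651 in wild type, were above background in wild type alone. The others at least 2-fold higher were Ampd3 (2.47), Atp10a (1.85), Sfmbt2 (1.40), Slc38a4 (1.32, or 0.93 with spike-in centring) and Tspan32 (1.08, or 0.56 without the filter on dim probes). The others at least 2-fold lower were Begain (−2.60, or −1.02 without the filter on dim probes), Osbpl5 (−1.76), Th (−1.45) and Casd1 (−1.31). Above background in the knockout alone were Zfp264 (at least 9.66-fold higher), Kcnq1 (at least 4.91-fold) and Zim3 (at least 3.14-fold). The Kcnq1 bound rests on 1 of its 5 probes (104 in the knockout against 11.1 in wild type). Its other probes were above background on neither array. Above background in wild type alone were Kcnk9 (at least 8.93-fold lower in the knockout), Peg13 (at least 5.63-fold) and Klf14, which has no bound.

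Among factors that maintain or remove methylation at imprinted regions, those past 2-fold were all higher, except with spike-in centring, where Tet3 (−0.63 here) was at −1.02. The 2 probes of Tet3 disagreed (−1.49 and 0.22 here), and its value is their midpoint. All 16 factors were measured. Past 2-fold there were 6 (37.5%) on the higher side and 0 on the lower, beside 11.5% and 8.81% of all measured genes. The median of the factors was 0.72. With spike-in centring 4 were higher and 1 lower, beside 7.49% and 15.8% of all measured genes, and the median of the factors was 0.33. Dnmt3l, the cofactor of de novo methylation, read 13481 in the knockout against 1359 in wild type, a difference of 3.31. Dppa3, which protects methylation in the early embryo, differed by 2.84, the methyltransferase gene Dnmt3b by 2.07 and the methylcytosine dioxygenase gene Tet1 by 2.02. Zfp57, the zinc finger protein that binds methylated imprinting control regions, differed by 1.12 and Tet2 by 1.06; with spike-in centring they were at 0.74 and 0.68. Several of these genes are also known for high expression in pluripotent cells, whose markers were higher in the same array, and the part of cell state in these values was not tested. Methylation itself was not measured.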

How the data were processed

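Total RNA was labelled with Cy3 and hybridised to single-colour arrays, 1 per group. The deposited intensity values came from Agilent Feature Extraction 10.7.1.1, per the submitters' processing notes; they were background-subtracted and detrended within each array, per the file headers, and carry mm9 positions. The deposited error intensity gave the scanner error. The 2 arrays share a slide and a scan, while culture and array position coincide with the group and cannot be told apart from it. The number of arrays limits the precision.

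Outlier spots (155 on the knockout array, 173 on the wild type array) were left out, spots averaged on the log2 scale, and each array centred on its 75th percentile (652 for the knockout, 864 for wild type). Of 56605 probes, 31536 were measured on both arrays, including 79 of 100 member probes; no probe was saturated (0 probes). Over 298 probes printed repeatedly, the pooled spot SD was 0.0705 in the knockout and 0.0646 in wild type. Along 3983 transcripts whose probes lay 500 or more bases apart, the difference of the 3′ probe minus that of the 5′ probe had a median of −0.14, and in 14 transcripts of members −0.27. A gene measured on 1 array has a lower bound of fold against the higher of the other array's lowest signal well above background (30.5 in the knockout, 21.3 in wild type) and the probe's own signal there. A fixed limit of 2-fold was applied with no test. Every member is accounted for; of other genes, those of the imprinted and maintenance lists past 2-fold or with a bound are named. The members and lists were chosen with earlier results of these data known, and the neighbouring stretches and the search for similar probes (45 of 60 identical bases, BLAST 2.17.0) after values were seen. The steps ran in R 4.3.3 with limma 3.58.1 and Python 3.11.15. Only the gene median and the 2-fold limit were tested on simulated data, with spot noise alone, so normalization and the spread between cultures were not. Alternatives were quantile and loess normalization, spike-in centring, normexp background correction, other filters, and other ways to combine probes or name genes. Per the labels' protocols RNA came from tissue, although the samples are cells, so that text was not relied on.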

Additional observations from a re-analysis of the deposited data

How the results depend on the processing

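The 4 members at least 2-fold higher and 11 lower became 4 to 6 higher and 11 to 16 lower under the 10 alternative settings. The 16 lower came from spike-in centring, where 15.8% of all measured genes were lower by that much, beside 8.81% in the main setting. The 6 higher came from taking the brightest probe, where 11.6% of all genes were higher, beside 11.5%. Members with a value numbered 47 when dim probes were kept, 37 under a stricter limit for them and 41 otherwise. The median difference of the members moved to −0.68 with spike-in centring, where the median of all genes also moved by −0.38. Of the 15 members past 2-fold, 14 (4 higher, 10 lower) stayed past it in the same direction in every setting that gave them a value; Plagl1 did not, at −0.34 without the filter on dim probes. Over 406 values of single members under the alternatives, 339 moved by less than the scanner error and 67 by more. Some members within 2-fold passed it elsewhere: with spike-in centring Peg10 (−1.11), Ndn (−1.27), Airn (−1.34), Slc22a3 (−1.06) and Zdbf2 (−1.34), with quantile normalization Ndn (−1.05), and by their brightest probe Ddc (1.19), Kcnq1ot1 (1.93) and Airn (−1.11). The cause was not tested. No paired analysis was possible because there is 1 array per group, and no replicate could be left out. Probes near background, such as those of Slc22a3 and the dim Plagl1 probe, limit what low members can show.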
